A study of Mus musculus with 9 samples.

Results

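The miR-30 family was followed across the livers of chow-fed, high fat diet and metformin-treated mice through its 5 members of the 5p arm, mmu-miR-30a-5p, mmu-miR-30b-5p, mmu-miR-30c-5p, mmu-miR-30d-5p and mmu-miR-30e-5p, named from here on without the species prefix. The rule takes them by name among the 1881 mouse miRNAs on the array. Livers came from male mice of the inbred strain C57BL/6J, aged 20 weeks. Control mice were kept on chow from the age of 3 weeks, for 17 weeks. In the high fat diet group, fat supplied 45% of dietary energy for those 17 weeks, and saline was given by stomach tube during the last 5, from the age of 15 weeks and after 12 weeks of feeding. The metformin group ate the same diet on the same schedule and received metformin, a glucose-lowering drug, at 3 mg per kg per day in place of saline. No vehicle is named for the control mice. Each group had 3 one-colour arrays, and each array measured liver pooled from 4 mice, so that errors and p-values describe pools and not single animals.

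A miRNA is a short RNA that guides an Argonaute protein to messenger RNAs and lowers their translation and stability. Pairing starts from the seed, bases 2 to 8 counted from the 5′ end, so miRNAs with one seed share many predicted targets. The miR-30 family is expressed in many tissues, liver among them. In hepatocytes miR-30c-5p is known to repress Mttp, which loads lipid onto secreted lipoproteins, and miR-30a-5p is known in several cell types to repress Becn1, a starter of autophagy. These are background and were not measured here.

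The mature sequences are shown because the 3 that could be matched differ only in their last bases while their seed, printed in capitals, is the same. RefSeq, with coordinates on build GRCm38.p6, gave the sequence of 3 of the 5 members. The seed GUAAACA occurs in 4 of the 1679 mature names of that table, a share of 0.238%, and the fourth is miR-384-5p. The sequences run 5′ to 3′.
miR-30a-5p: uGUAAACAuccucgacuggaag
miR-30e-5p: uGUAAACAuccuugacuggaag
miR-30c-5p: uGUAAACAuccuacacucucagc
miR-384-5p: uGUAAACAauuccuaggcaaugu
The mature miR-30a-5p is encoded at chr1:23272274-23272295 on the plus strand and miR-30e-5p at chr4:120772660-120772681 on the minus strand. The mature miR-30c-5p is encoded at 2 places, in Mir30c-2 at chr1:23291714-23291736 on the plus strand and in Mir30c-1 at chr4:120769584-120769606 on the minus strand. The 3 members share their first 12 bases. Counted from the 5′ end, miR-30a-5p and miR-30e-5p were identical at 21 of 22 positions and differed by C13U. With miR-30c-5p each of them was identical at 17 of 22 compared positions, and the 5 differences lay at C13A, G14C, G18C, G19U and A20C for miR-30a-5p against miR-30c-5p. Cross-hybridisation between probes for such close sequences was not tested.

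The hairpins lie in pairs on the genome, which is why 3 within-array ratios are compared further on. In the gene table of GRCm38.p6, Mir30a and Mir30c-2 are neighbours on chromosome 1 at a distance of 19.4 kb. Mir30b and Mir30d lie 3.79 kb apart on chromosome 15. Mir30c-1 and Mir30e lie 3.07 kb apart on chromosome 4, inside the span of Nfyc, which encodes a subunit of the transcription factor NF-Y. The hairpin of Mir30a, at chr1:23272269-23272339 on the plus strand, is shown with both of its mature arms in capitals because both arms were detected in every pool.
Mir30a: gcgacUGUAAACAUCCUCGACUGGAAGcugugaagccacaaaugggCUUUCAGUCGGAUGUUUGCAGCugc

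The arrays carried 4415 mouse miRNA probes on 56430 spots, and no spot was saturated. The 3 hepatocyte miRNAs miR-122-5p, miR-192-5p and miR-194-5p were detected on all 9 arrays, as the tissue label requires, while miR-124-3p and miR-9-5p of neurons and miR-375-3p of islets were detected on 0. On 6 of the 9 arrays, strips of columns at the left or right edge gave little or no signal from bright probes. Between 41.1% and 43.8% of a control array's spots lay in strips, against 0% to 53.6% for high fat diet and 0% to 31.1% for metformin, so the strips were unevenly spread over the groups. The main reading left the strips out, and a reading with all spots is printed beside it. Levels are log2 of a probe's intensity over the array's 75th percentile across the 187 probes detected on all arrays, so a level of 0 equals that percentile. Levels of different miRNAs are not comparable, because probes differ in how brightly they bind. Slides were told apart by the scan date in the file headers. By that date slide 1 held 8 arrays and slide 2 held only the third control array. Of the rows of slide 1, the high fat diet arrays were all in row 1 with 1 metformin array, and the remaining 2 controls and 2 metformin arrays were in row 2, so no row of slide 1 held both high fat diet and control arrays.

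The strips touched the members directly. The 5 probes that represent them have 70 spots on each array, of which 33 to 36 fell in a strip for control. For high fat diet the counts were 38, 0 and 22, and for metformin 0, 22 and 0. On the first high fat diet array the member spots in the strip had a median of 0.110% of that probe's level over the kept spots, and on the other 5 arrays with strips the medians were 4.33% to 17.0%. Among kept spots, 1 on the first control array and 1 on the second metformin array lay under 50% of the level of their probe. After the strips were left out, each member was detected on all 9 arrays, from 5 to 15 spots each.

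**Figure D1:**
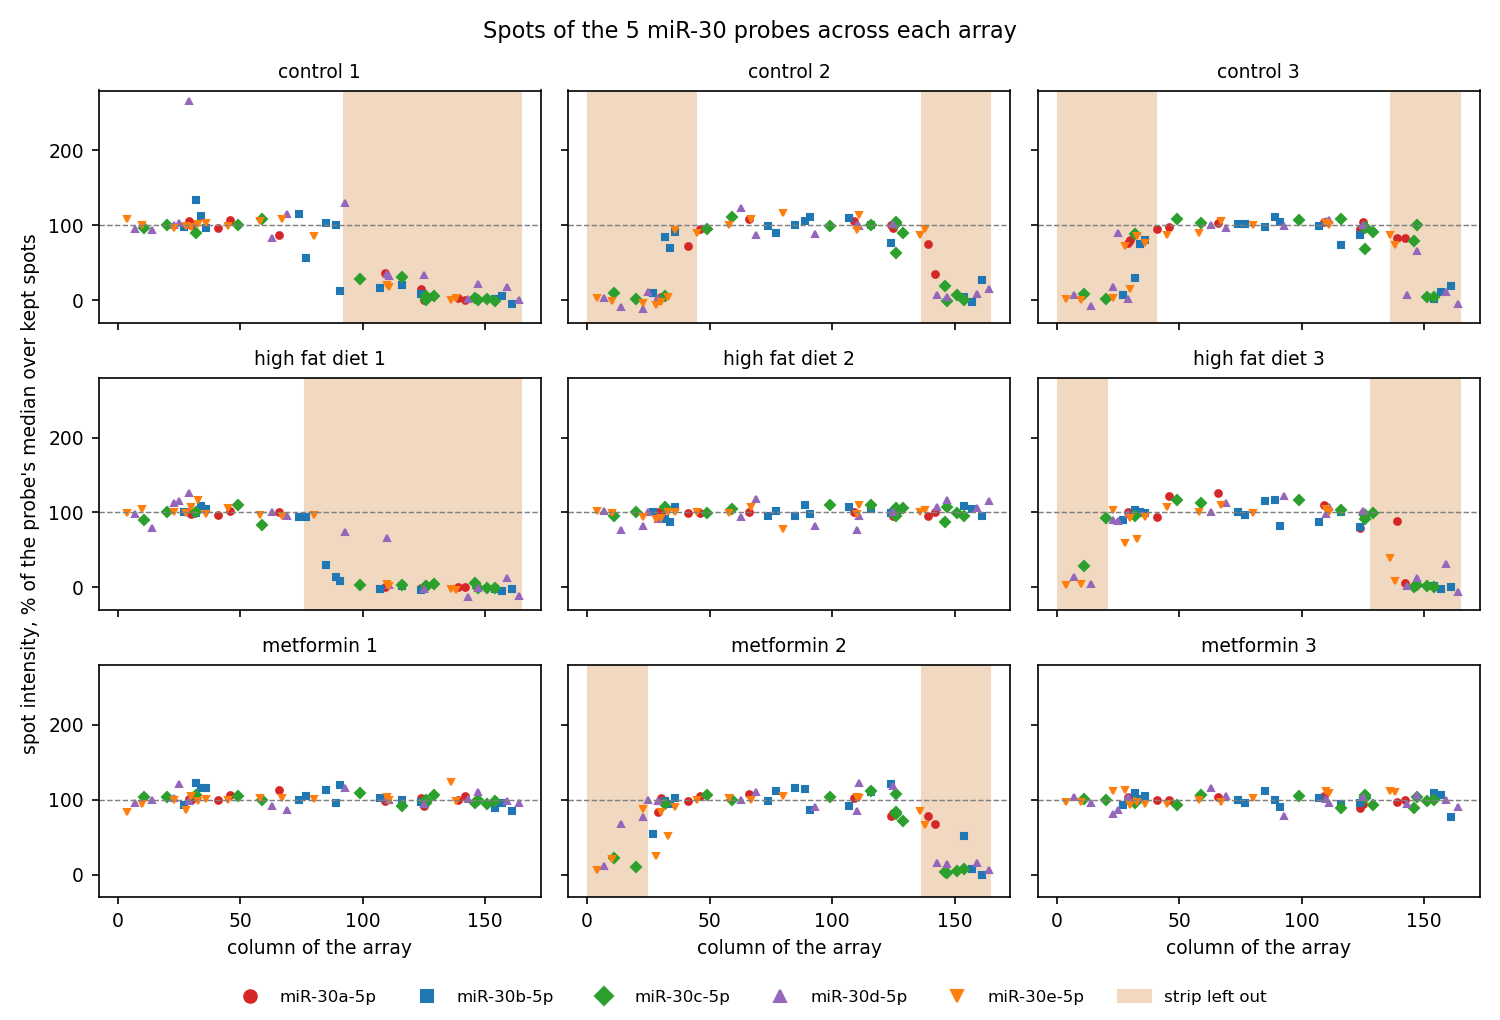
Spots of the 5 probes that represent the miR-30 family, by column of the array (x axis) and by intensity as a percentage of that probe's median over kept spots (y axis), for each of the 9 arrays. Shaded columns are the strips left out. Spots lie near 100% across the high fat diet 2, metformin 1 and metformin 3 arrays, and most fall far below it inside the strips of the other 6.

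With the strips left out, no change of the family was detected across the 3 groups. In each comparison 0 of 5 members passed the test, against 14.0% of all tested miRNAs for high fat diet against control and 1.40% for each metformin comparison. The arrays of the groups overlapped for every member, where they separated for 37.1%, 20.3% and 25.9% of all tested miRNAs. A count of 0 of 5 lies near a share of 1.40%. With all spots, the metformin and control arrays of miR-30d-5p did separate. In the main reading the largest difference between group means was 0.13 on the log2 scale, and with 1 array left out it reached 0.27. From only positions kept on all arrays, miR-30e-5p was at 0.26 for high fat diet against control and -0.27 for metformin against high fat diet. In bulk liver, fewer cells of a type and less RNA per cell cannot be told apart. The levels of each member in each pool follow, by genomic pair.

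miR-30a-5p, read at an intensity of 500.1 to 842 before scaling, had log2 levels of 1.37, 1.46 and 1.54 in the control pools. Its levels were 1.65, 1.59 and 1.31 in the high fat diet pools and 1.46, 1.49 and 1.47 in the metformin pools. The high fat diet group held both the highest and the lowest pool, and every other pool lay between them. The group means were 1.46 ± 0.08 in control, 1.52 ± 0.18 in high fat diet and 1.47 ± 0.02 in metformin (SD, n = 3).

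miR-30c-5p, which derives from 2 hairpins and is the member known for Mttp, had levels of -0.71, -0.64 and -0.71 in control. In high fat diet its levels were -0.55, -0.67 and -0.71, and in metformin -0.49, -0.73 and -0.47. The first and the third metformin pools were the highest, but the second was the lowest of all 9, so metformin spanned the range of the other groups. The means were -0.69 ± 0.04, -0.64 ± 0.09 and -0.56 ± 0.14 in control, high fat diet and metformin (SD, n = 3). Both of those high metformin arrays had no strip, as had the second high fat diet array, at -0.67.

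miR-30e-5p, whose hairpin shares the Nfyc span with Mir30c-1, had levels of -2.02, -1.97 and -1.73 in control. They were -1.76, -1.68 and -1.89 in high fat diet and -1.84, -1.83 and -1.93 in metformin. The lowest 2 pools were controls, but the third control pool lay above all metformin pools. The means were -1.90 ± 0.15, -1.78 ± 0.10 and -1.87 ± 0.06 (SD, n = 3).

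miR-30b-5p of the chromosome 15 pair had levels of -2.90, -2.34 and -2.21 in control, -2.35, -2.37 and -2.33 in high fat diet, and -2.39, -2.49 and -2.30 in metformin. The control group held the lowest and the highest pool, and the high fat diet pools lay close together. The means were -2.48 ± 0.37, -2.35 ± 0.02 and -2.39 ± 0.10 (SD, n = 3).

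miR-30d-5p, encoded beside it, had levels of -3.43, -3.07 and -2.93 in control, -3.23, -3.13 and -3.11 in high fat diet, and -3.09, -3.23 and -3.00 in metformin. Its extremes were the same 2 control pools as for miR-30b-5p. The means were -3.14 ± 0.26, -3.16 ± 0.07 and -3.11 ± 0.12 (SD, n = 3), the closest of any member. Its probe was read at an intensity of 17.9 to 37.5, after subtraction of a local background of 16.1 to 20.9.

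**Figure D2:**
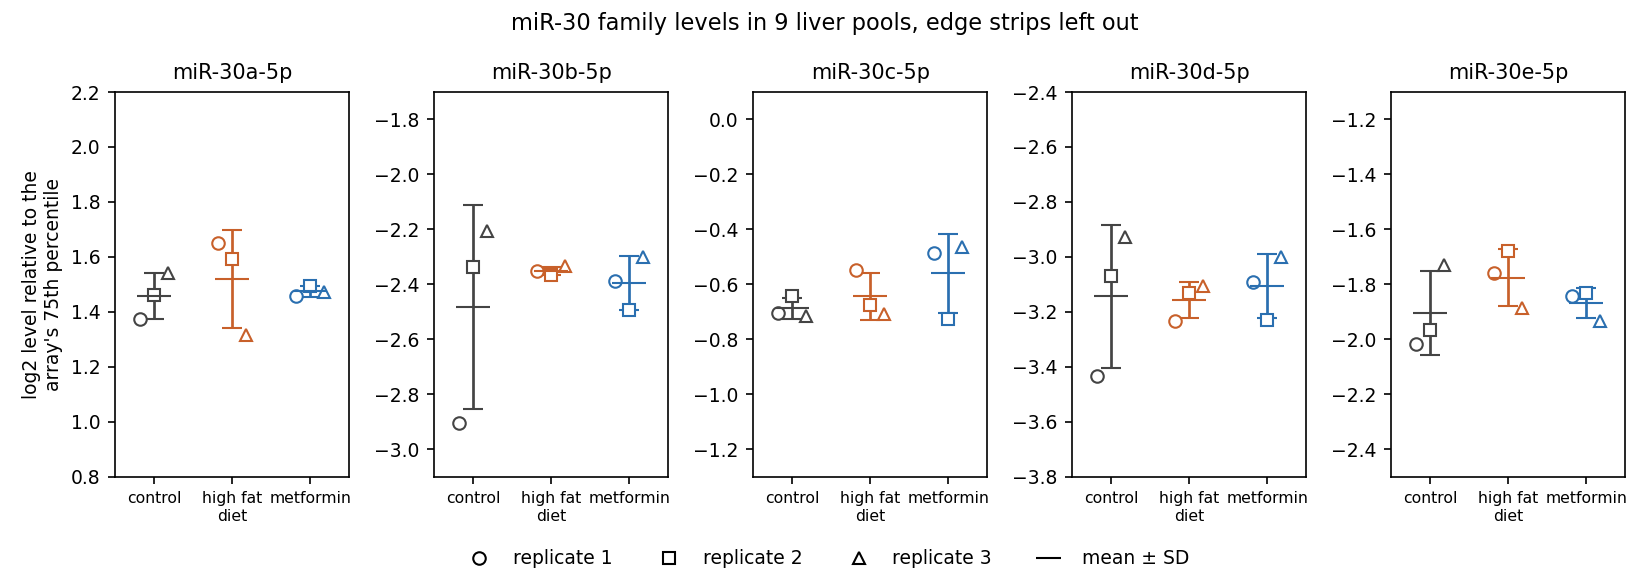
Log2 level (y axis, relative to the array's 75th percentile over probes detected on all arrays) of each miR-30 member in the 3 pools of each group, with edge strips left out. Open symbols are arrays and bars the mean ± SD of 3. Every panel spans 1.4 log2 units, and the groups overlap in all 5, with the first control pool lowest for miR-30b-5p, miR-30d-5p and miR-30e-5p.

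The order of the groups differed between members, and no neighbours in any order differed beyond their spread. High fat diet had the highest mean for miR-30a-5p, miR-30b-5p and miR-30e-5p, and metformin for miR-30c-5p and miR-30d-5p. The SD within groups, pooled over the 3, was 0.12 for miR-30a-5p, 0.22 for miR-30b-5p, 0.10 for miR-30c-5p, 0.17 for miR-30d-5p and 0.11 for miR-30e-5p. The median over the 143 miRNAs tested was 0.15, so 3 members were steadier than the typical miRNA and 2 were not. The first control pool was the lowest array for 3 members and for 43 of the 143 tested miRNAs (30.1%). It lay 0.63 below the mean of the other 2 controls for miR-30b-5p and 0.43 below for miR-30d-5p, against a median of 0.03 below over all tested miRNAs. On that array the 9 kept spots of miR-30b-5p had a standard error of 0.36 on the log2 scale, against a median of 0.05 over the arrays.

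For high fat diet against control, the comparison of diet with chow, 0 of 5 members passed limma's test, against 14.0% of all tested miRNAs (20 of 143), and 0 of 5 had an unadjusted p under 0.05. The arrays of the groups separated fully, with no overlap, for 0 of 5 members, against 37.1% of all tested. miR-30b-5p differed by 0.13 (95% interval -0.21 to 0.48, adjusted p = 0.577) and miR-30e-5p by 0.13 (-0.10 to 0.35, adjusted p = 0.368) by limma. Both were higher on average in high fat diet, within intervals that include 0. For miR-30a-5p the difference was 0.06 (-0.17 to 0.29, adjusted p = 0.714) and for miR-30c-5p 0.04 (-0.17 to 0.26, adjusted p = 0.776), again by limma. miR-30d-5p differed by -0.01 (-0.30 to 0.27, adjusted p = 0.974). Without the first control pool the miR-30b-5p difference was 0.02 in place of 0.13, and that of miR-30c-5p was 0.13 in place of 0.04. Without the third control pool, the lone array of slide 2, the miR-30b-5p difference was 0.27. With the row as a block, a fit on slide 1 only that also lacks this pool, the miR-30b-5p difference was 0.26.

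The intervals describe single members within this fit, which has the strips left out and no term for the row. The widest upper bound for diet against chow was 0.48, a 1.39-fold rise of miR-30b-5p, and the widest lower bound was -0.30, for miR-30d-5p. With all spots the bounds of the members reached -0.62 and 0.60. The 20 miRNAs that passed in this comparison with the strips left out had differences of 0.31 to 1.37 in size. Ranked by the size of the difference, the members took places 93 to 136 of 143. The median difference was 0.06 over the 5 members and 0.03 over all tested miRNAs, and 4 of 5 members were positive, each of which turned negative under at least 1 alternative of scaling, background correction or spots. With the row of slide 1 as a block, 0 of 143 miRNAs passed by limma and 30 had an unadjusted p under 0.05. That fit lacks the third control pool, and no row held both groups, so it compares them only through the metformin arrays. Whether the row or the loss of precision removed the calls was not tested. The share of 14.0% comes from the fit that leaves the row out.

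For metformin against high fat diet, the comparison of the drug with saline on one diet, 0 of 5 members passed, against 1.40% of all tested (2 of 143), and 0 of 5 had an unadjusted p under 0.05 by limma. Groups separated for 0 of 5 members, against 20.3% of all tested. The difference was 0.08 for miR-30c-5p (95% interval -0.13 to 0.30, adjusted p = 0.715) and -0.09 for miR-30e-5p (-0.32 to 0.13, adjusted p = 0.715) by limma. The miR-30c-5p difference was 0.17 without the second metformin pool and 0.04 without the third. Those 2 members, from neighbouring hairpins on chromosome 4, had opposite signs, each within an interval that includes 0, and miR-30e-5p turned positive with quantile normalization. miR-30a-5p differed by -0.05 (-0.27 to 0.18), miR-30b-5p by -0.04 (-0.39 to 0.30) and miR-30d-5p by 0.05 (-0.24 to 0.33), with adjusted p from 0.893 to 0.898 by limma. The lowest bound of any member was -0.39, a 1.31-fold fall of miR-30b-5p. Within row 1 of the slide, which held 1 metformin and 3 high fat diet arrays, the differences were -0.06, -0.04, 0.16, 0.07 and -0.07 from miR-30a-5p to miR-30e-5p, with the signs of the full comparison.

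For metformin against control, in which diet and drug change together, 0 of 5 members passed, against 1.40% of all tested (2 of 143), and 0 of 5 had an unadjusted p under 0.05 by limma. Groups separated for 0 of 5 members, against 25.9% of all tested. All 5 differences were positive, but miR-30b-5p, miR-30d-5p and miR-30e-5p turned negative with normexp background correction and miR-30a-5p with all spots, among other alternatives. With normexp the median over all tested miRNAs was -0.10. In the main reading the differences were 0.02 for miR-30a-5p (95% interval -0.21 to 0.24), 0.09 for miR-30b-5p (-0.26 to 0.43), 0.13 for miR-30c-5p (-0.09 to 0.34), 0.04 for miR-30d-5p (-0.25 to 0.32) and 0.04 for miR-30e-5p (-0.19 to 0.26). By limma the adjusted p was 0.483 for miR-30c-5p and 0.764 to 0.925 for the other members. Within row 2, with 2 arrays a group, they were 0.07, 0.22, 0.08, 0.14 and 0.11 in the same order. Without the first control pool, miR-30b-5p and miR-30d-5p turned to -0.03 and -0.02. With the scaling percentile taken over all probes, most of them undetected, all 5 members passed at 0.83 to 0.94 (limma, adjusted p from 0.0138 to 0.0201), as did 98 of all 143 miRNAs, whose median was then 0.80. Relative to that median the members lay at 0.02 to 0.14. This comparison shares its control arrays with diet against chow and its metformin arrays with the drug comparison, so the 3 sets of differences are not separate evidence.

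**Figure D3:**
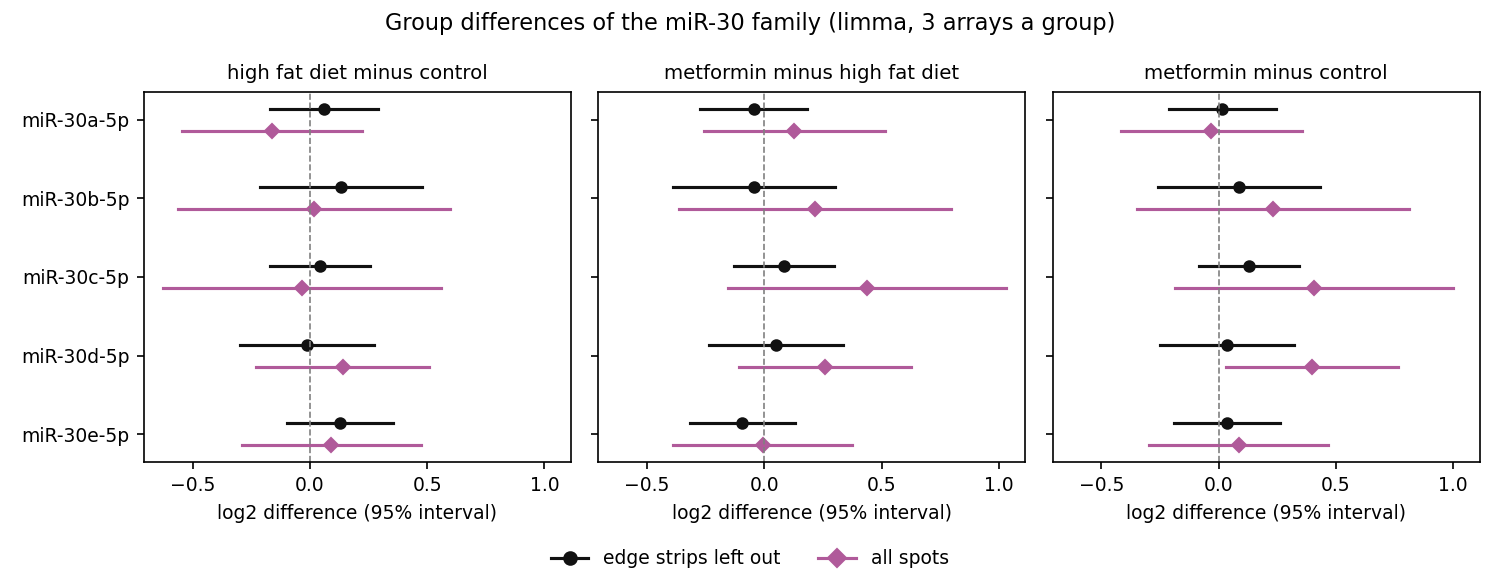
Log2 difference between group means (x axis) with the 95% interval from limma for each miR-30 member, in the 3 comparisons of 3 arrays each. Circles are the reading without edge strips and diamonds the reading with all spots. All 15 circle intervals include 0, and the diamond of miR-30d-5p in metformin minus control is the single interval that lies above 0.

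The reading with all spots gave wider intervals for every member. Differences were larger in size for 5 of 5 members in metformin against control and for 4 of 5 in metformin against high fat diet, where miR-30e-5p was at -0.01 against -0.09 with the strips left out. By limma, 0 of 5 members passed for diet against chow, against 6.47% of the 139 miRNAs tested there (9 calls). For both metformin comparisons 0 of 5 passed, against 0% (0 of 139), where 15 miRNAs had an unadjusted p under 0.05 in each. Groups separated for 0 of 5 members against 23.0% of all tested for diet against chow, and for 0 of 5 against 22.3% for the drug comparison. For metformin against control they separated for 1 of 5 members, miR-30d-5p, against 21.6% of all tested.

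With all spots, miR-30c-5p read -2.05, -1.41 and -1.44 in control, -2.08, -1.34 and -1.57 in high fat diet, and -0.97, -1.69 and -1.02 in metformin. The first and the third metformin arrays, both without strips, were the high ones, and the second metformin array, with strips, lay among the controls. The second high fat diet array, also without strips, was below both at -1.34. The miR-30c-5p difference for metformin against high fat diet was 0.44 (95% interval -0.16 to 1.03, adjusted p = 0.510 by limma), against 0.08 with the strips left out. miR-30d-5p read -4.09, -4.19 and -4.08 in control, -4.01, -3.85 and -4.08 in high fat diet, and -3.57, -4.02 and -3.58 in metformin. Here too the metformin arrays without strips were the highest, and the second high fat diet array, without strips, was below both at -3.85. The miR-30d-5p difference for metformin against control was 0.40 (0.03 to 0.77, unadjusted p = 0.036, adjusted p = 0.388 by limma) against 0.04 with the strips left out. The probe was detected on 2 of 3 control arrays. The sign of the diet difference turned with the reading for 3 members: miR-30a-5p was at -0.16, miR-30c-5p at -0.03 and miR-30d-5p at 0.14 with all spots.

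Different probes of a member were read where the array has them. The 5 members have 11 probes, of which 9 were detected on all arrays with the strips left out. The 4 of these that do not represent a member, 2 for miR-30a-5p and 1 each for miR-30c-5p and miR-30d-5p, gave differences from -0.12 to 0.11 over the 3 comparisons. The second probe of miR-30b-5p was not well above background on any array, and that of miR-30e-5p was detected on 7 of 9. This miR-30e-5p probe differed by -0.08 for diet against chow, -0.09 for metformin against high fat diet and -0.17 for metformin against control. The miR-30e-5p probe used gave 0.13, -0.09 and 0.04. For miR-30c-5p the second probe differed by 0.11 for diet against chow and by -0.01 for metformin against high fat diet, against 0.04 and 0.08 for the probe used. No probe of a member detected on all arrays differed by more than 0.13 in any comparison.

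The ratio of 2 members within an array is free of the array's scaling, and was compared between groups for the 3 genomic pairs, 9 comparisons in all. The value of such a ratio depends on the probes, and only its change between arrays is used. For the chromosome 15 pair, the log2 ratio of miR-30b-5p to miR-30d-5p was 0.53, 0.73 and 0.72 in control, 0.88, 0.76 and 0.77 in high fat diet, and 0.70, 0.74 and 0.70 in metformin. All 3 high fat diet pools lay above all others. The mean ratio differed by 0.15 for high fat diet against control and by -0.09 for metformin against high fat diet, each with p = 0.1 in an exact two-sided permutation test, the smallest that 3 against 3 can give, and 0.45 after Benjamini-Hochberg adjustment over the 9. Without the first control pool the first difference was 0.08, and with all spots it was -0.12 (exact permutation p = 0.8), so its direction depends on the reading.

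The ratios of the other pairs overlapped between groups. The ratio of miR-30a-5p to miR-30c-5p differed by 0.02, -0.13 and -0.11 for diet against chow, drug against saline and metformin against control (exact permutation p = 0.9, 0.3 and 0.3, adjusted 0.9, 0.54 and 0.54). The ratio of miR-30c-5p to miR-30e-5p differed by -0.08, 0.18 and 0.09 (exact permutation p = 0.5, 0.3 and 0.5, adjusted 0.643, 0.54 and 0.643). Lone pools decided the small values: without the third control pool the last of these was -0.01.

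Among the members, levels moved together most within the chromosome 15 pair. Over the 9 arrays Pearson's r was 0.902 between miR-30b-5p and miR-30d-5p and 0.829 without the first control pool. Between miR-30a-5p and miR-30e-5p, which differ at 1 base, it was 0.740, and 0.680 without that pool. The other 8 pairs lay between -0.08 and 0.54. With all spots the first pair was at 0.226 and the second at -0.769, so these values hold for the reading without strips only. All members of an array share its pooled RNA, its scaling and its strips, and the correlations are a description with no test.

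The miRNAs whose pattern over the 9 arrays was most like the mean of the 5 members were miR-140-5p (r = 0.941), miR-194-5p (0.939), miR-122-3p (0.916), miR-192-5p (0.894) and miR-652-3p (0.869), out of 138 others tested. miR-194-5p, miR-192-5p and miR-122-3p come from hepatocyte-enriched hairpins. Without the first control pool these values fell to between 0.453 and 0.756, and 1 of the 5, miR-652-3p, was also among the 5 most alike with all spots. By member, the nearest miRNA was miR-29b-3p for miR-30a-5p (0.804), miR-140-5p for miR-30b-5p (0.921), let-7c-5p for miR-30c-5p (0.881), miR-30b-5p for miR-30d-5p (0.902) and miR-101a-3p for miR-30e-5p (0.852). Without the first control pool these 5 values were 0.763, 0.576, 0.870, 0.829 and 0.780. With all spots the nearest miRNA was another one for each member: miR-140-5p, miR-423-5p, miR-23a-3p, miR-425-5p and miR-29b-3p, from miR-30a-5p to miR-30e-5p.

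**Figure D4:**
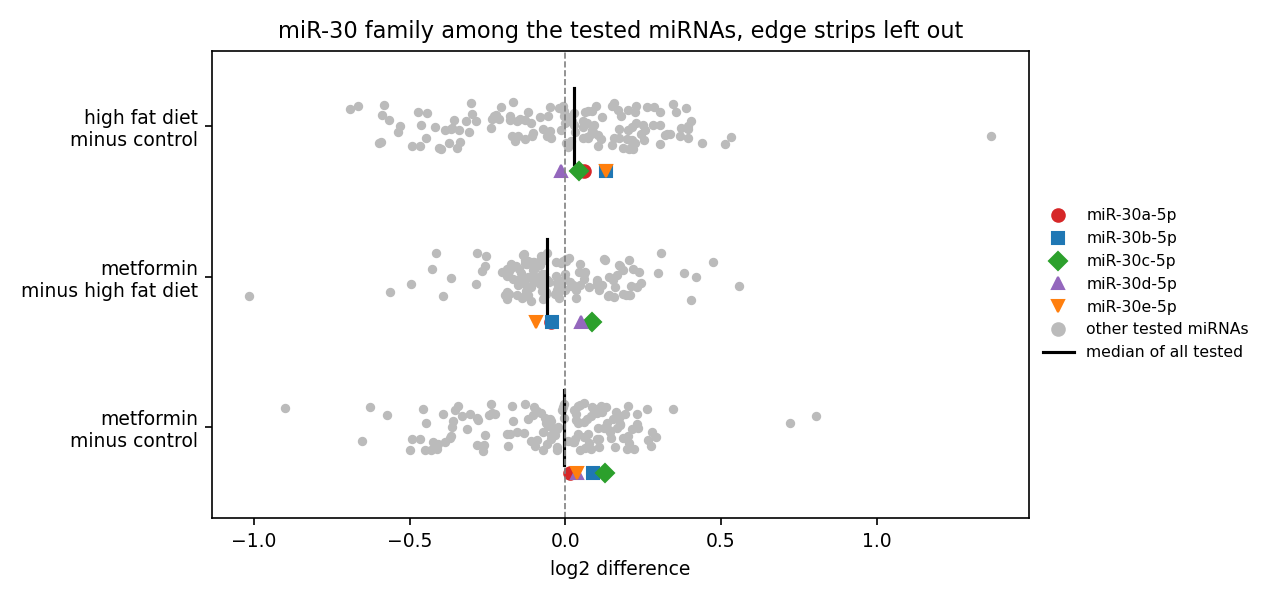
Log2 differences (x axis) of the 143 tested miRNAs in the 3 comparisons (rows), with edge strips left out. Grey points are other miRNAs with vertical jitter, coloured symbols the miR-30 members and black lines the medians. The largest member difference is 0.13 in each of the first and the last row and smaller between them, and the grey points reach 1.37 for high fat diet minus control.

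The opposite arms of the miR-30 hairpins were mostly too dim to read. Of the 6 arms, miR-30f and miR-384-5p, 2 of 8 were tested. miR-30a-3p, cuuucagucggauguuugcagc, had levels of -2.64, -2.59 and -2.47 in control, -2.56, -2.64 and -2.52 in high fat diet, and -2.53, -2.68 and -2.51 in metformin. Its differences were -0.01 for diet against chow (95% interval -0.21 to 0.19), 0.00 for the drug (-0.20 to 0.20) and -0.01 for metformin against control (-0.21 to 0.19). miR-30c-2-3p, from the other hairpin of chromosome 1, differed by 0.07, 0.01 and 0.08, with adjusted p from 0.689 to 0.964 by limma. miR-30e-3p was detected on some arrays only, and miR-30b-3p, miR-30c-1-3p, miR-30d-3p, miR-30f and miR-384-5p were not detected on any.

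Lists of other miRNAs were set beside the family, and all were tested in the same fit. Of 16 abundant hepatocyte and liver miRNAs, 15 were tested and 0 passed in any comparison, with median differences of 0.09, -0.06 and 0.10 against 0.03, -0.06 and -0.00 over all tested. With all spots these medians were -0.15, 0.16 and 0.01 against -0.22, 0.16 and 0.02, and 2 of 15 differences for diet against chow were positive, against 14 of 15 with the strips left out, so the direction depends on the reading. The largest there was miR-148a-3p at 0.37 for diet against chow (adjusted p = 0.0624 by limma), which was 0.09 with all spots. Of 12 regulators of fibrosis and of the epithelial state, 5 were tested and 0 passed, and their medians were 0.22, -0.18 and 0.03, or 0.21, 0.14 and 0.17 with all spots. The miR-29 members of that group, which repress collagen genes, differed by 0.22 to 0.25 for diet against chow without passing. With all spots miR-29b-3p and miR-29c-3p were at 0.25 and 0.21, but miR-29a-3p was at -0.41.

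Of 11 other miRNAs known to act on lipid handling, as miR-30c-5p does, 7 were tested. For diet against chow 2 of these 7 rose and 0 fell, where 20 of all 143 tested passed (14.0%), 6 higher and 14 lower. By limma miR-34a-5p rose by 1.37 (SE 0.14, adjusted p = 0.000265) and miR-185-5p by 0.53 (SE 0.10, adjusted p = 0.00827). miR-34a-5p is a p53 target that represses Sirt1, and miR-185-5p is known to repress genes of cholesterol uptake. For metformin against control miR-34a-5p rose by 0.80 (SE 0.14, adjusted p = 0.0143 by limma) and 0 fell. For metformin against high fat diet 0 rose and 0 fell. In each of these comparisons 2 of all 143 tested passed. Blocking on the row used slide 1 only, without the third control pool. For diet against chow this block gave miR-34a-5p 1.27 (adjusted p = 0.0745) and miR-185-5p 0.68 (adjusted p = 0.0814) by limma. For metformin against control it gave miR-34a-5p 0.74 (adjusted p = 0.0595), so none of the 3 passed. With all spots, limma gave miR-34a-5p 0.84 (adjusted p = 0.0464) and miR-185-5p 0.42 (adjusted p = 0.146) for diet against chow. For metformin against control it gave miR-34a-5p 0.63 (adjusted p = 0.203), so 1 of the 3 passed there. The medians of these 7 were 0.19, -0.15 and 0.10, against 0.03, -0.06 and -0.00 over all tested. With all spots they were -0.17, 0.03 and -0.10, of the opposite sign in each comparison, against -0.22, 0.16 and 0.02 over all tested. Of 8 miRNAs known to act on autophagy genes, as miR-30a-5p does, 4 were tested and 0 passed, with medians of 0.12, -0.14 and 0.04, or -0.05, 0.03 and 0.04 with all spots. Against these, the family's medians were 0.06, -0.04 and 0.04. With all spots the family was at 0.02, 0.22 and 0.23, beside the same -0.22, 0.16 and 0.02 over all tested.

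Markers of other liver cells were read in the same way. miR-223-3p of leukocytes and miR-126a-3p of endothelium were detected on all arrays and did not pass in any comparison. miR-451a of red cells, the 1 of 3 red cell markers that could be tested, was at 0.11, -1.01 and -0.90 in the 3 comparisons and did not pass (adjusted p = 0.807, 0.158 and 0.150 by limma). Of the 6 stellate and mesenchymal markers 3 were tested, and miR-199a-3p rose by 0.31 for diet against chow (adjusted p = 0.0301), where blocking on the row gave 0.26 (adjusted p = 0.350) and all spots 0.57 (adjusted p = 0.158). Of 5 bile duct markers and 2 muscle markers none was tested, because none was detected on all 3 arrays of a group. Whether shifts in these cells bear on the level of the family was not tested.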

How the data were processed

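The scanner files of the 9 pools were used. Per the file headers, the authors' values are spot intensity after background subtraction, from Agilent Feature Extraction 11.5.1.1 (10.7 per the submitters' processing notes), with no scaling between arrays. The authors' deposited value table holds log2 values; set against the scanner files, each array's values lie within 0.001 of the log2 total gene signal plus a constant (-2.35 to -0.71, differing by array, its choice not stated), apart from 0 to 6 of 1879 miRNAs per array. Depth of reads does not apply; 3 arrays a group limit the precision.

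Strips were traced from both edges, 4 columns at a time, for as long as 10% or more of the spots of bright probes (80th percentile over an intensity of 100) lay under 50% of that level. A probe is the median of its remaining spots; 425 probes with under 3 were dropped. Intensities were divided by the 75th percentile over the 187 probes detected (share of spots well above background over 0.5) on all arrays, floored at 0.0406 and put on the log2 scale. The reading with all spots took the mean of spots, 124 probes for the percentile and a floor of 0.0272. Each miRNA is its brightest probe, and the test took those detected on every array of 1 or more groups: 143, or 139 with all spots. Group means were compared with limma 3.58.1 in R 4.3.3 (lmFit, eBayes, two-sided), with Benjamini-Hochberg adjustment over all tested and a threshold of 0.05; ratios with exact permutation tests. The fits were tested on simulated data.

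The members and the lists were chosen with earlier results of these data known, and so was the main reading. Named are the 5 members with all their probes, the other arms, miR-30f and miR-384-5p, the 5 miRNAs most like the family and the nearest to each member by Pearson's r, and from each list those that passed and otherwise up to 4 of the largest. miR-122-5p, miR-192-5p, miR-194-5p and other markers stand for cell types. Alternatives covered the spots, background, scaling, filter, probes, weights, blocks and left-out arrays; normexp (offset 50) took the median signal of each spot, as no mean signal column was at hand. No genome of the headers' build was used; gene names and coordinates are RefSeq's on GRCm38.p6. 0 pairs of arrays were identical.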

Additional observations from a re-analysis of the deposited data

How the results depend on the processing

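Of 348 member differences under the 24 alternatives, 5 passed the threshold, all for metformin against control with the percentile taken over all probes: 0.83, 0.90, 0.94, 0.85 and 0.85 from miR-30a-5p to miR-30e-5p (limma, adjusted p from 0.0138 to 0.0201). That scaling moved the median of all tested miRNAs to 0.80 there, 0.56 for high fat diet against control and 0.21 for metformin against high fat diet. Relative to those medians the members lay between 0.02 and 0.14, -0.03 and 0.11, and -0.03 and 0.14. With the strips kept, the medians of all tested were -0.22, 0.16 and 0.02 for diet against chow, drug against saline and metformin against control. From these all-spots medians the members differed by 0.06 to 0.36, -0.17 to 0.27 and -0.05 to 0.39. With normexp these medians were -0.13, 0.04 and -0.10. Relative to the normexp medians the members lay between -0.07 and 0.30, -0.15 and 0.04, and -0.03 and 0.16. The small differences changed sign in 35 of 213 cases other than left-out arrays and in 9 of 135 with an array left out. Scaling to the median over tested miRNAs shifts all miRNAs of an array alike. Relative to the median of all tested, the members then lay between -0.04 and 0.10, -0.03 and 0.14, and 0.02 and 0.13, as in the main reading. The cause of the other sign changes was not tested.

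For high fat diet against control, miR-30a-5p turned to -0.16 with all spots, -0.011 with the median over tested miRNAs and -0.014 in the deposited value table. miR-30b-5p turned to -0.10 and miR-30e-5p to -0.055 with normexp. miR-30c-5p turned to -0.031 with all spots, -0.070 with quantile normalization, -0.027 with the median, -0.082 in the value table and -0.078 with the row as a block. miR-30d-5p turned to 0.14 with all spots, 0.52 with the percentile over all probes, 0.040 in the value table, 0.095 with the slide block and 0.070 with the row block. For metformin against high fat diet, miR-30a-5p turned to 0.13 with all spots, 0.23 with the percentile over all probes and 0.036 with the median. miR-30b-5p turned to 0.22 with all spots, 0.023 with normexp, 0.071 with quantile normalization, 0.23 with the percentile over all probes, 0.038 with the median and 0.083 in the value table. miR-30e-5p turned to 0.056 with quantile normalization and 0.18 with the percentile over all probes. For metformin against control, miR-30a-5p turned to -0.031 with all spots, -0.019 with the mean of probes and -0.048 in the value table. miR-30b-5p turned to -0.077 and -0.047, and miR-30d-5p to -0.13 and -0.054, with normexp and with array weights. miR-30e-5p turned to -0.013 with only positions kept on all arrays, a setting that gave a value for no other member, and -0.090 with normexp. With only those positions, miR-30e-5p was at 0.26 for high fat diet against control (limma, adjusted p = 0.110), against 0.13 in the main reading. For metformin against high fat diet it was at -0.27 (limma, adjusted p = 0.169), against -0.09. The medians of all tested miRNAs were then 0.17 and -0.14.

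With an array left out, miR-30d-5p ranged from -0.061 to 0.095 for high fat diet against control, from -0.0041 to 0.11 for metformin against high fat diet and from -0.020 to 0.14 for metformin against control. miR-30b-5p ranged from -0.091 to 0.0064 and from -0.034 to 0.23 in the latter 2, and miR-30a-5p from -0.15 to 0.017 for metformin against high fat diet. With their direction kept, miR-30b-5p ranged from 0.019 to 0.27 for high fat diet against control, and miR-30c-5p from 0.037 to 0.17 for metformin against high fat diet.

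With all spots the ratio of miR-30b-5p to miR-30d-5p was -0.12 for high fat diet against control and -0.16 for metformin against control. The ratio of miR-30a-5p to miR-30c-5p for high fat diet against control was -0.13 with all spots and -0.013 with the mean of probes. With an array left out it ranged from -0.036 to 0.086, the ratio of miR-30b-5p to miR-30d-5p for metformin against control from -0.013 to 0.088, and that of miR-30c-5p to miR-30e-5p from -0.0082 to 0.19.

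Over all tested miRNAs, the 20 calls for high fat diet against control were 9 with all spots, 1 with the percentile over all probes, 0 with no filter, 0 in the value table, 31 with array weights, 39 with the slide block and 0 with the row block. With an array left out they ranged from 6 to 40, with 8 without control replicate 1, 40 without control replicate 3, 6 and 7 without high fat diet replicates 1 and 2, and 13 without metformin replicate 2. The 2 calls for metformin against high fat diet were 0 with all spots, common positions, the 20% strip limit, normexp, the percentile over all probes, no filter, the mean of probes, the value table and the row block, 1 with the slide block and 7 with array weights. They ranged from 0 to 3 with an array left out: 1 without control replicate 3 or high fat diet replicate 3, and 0 without high fat diet replicate 2 or with any metformin array left out. The 2 calls for metformin against control were 0 with all spots, common positions, normexp, no filter and the value table, 98 with the percentile over all probes, 4 with the median over tested miRNAs, 4 with array weights, 7 with the slide block and 5 with the row block. They ranged from 1 to 8: 4 and 8 without control replicates 1 and 3, and 1 with any metformin array left out. With the replicate number as a block the calls were 22, 0 and 3 in the 3 comparisons. Deviations of same-numbered pools correlated between -0.24 and 0.43, not all above 0.1, so no consistent pairing by number was seen. With 3 pools a group, these values cannot settle whether the numbers pair the pools. The probe of miR-30d-5p was read at 17.9 to 37.5, after subtraction of a local background of 16.1 to 20.9. Whether this low signal limited its precision was not tested.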
